A study of Homo sapiens with 2 samples.

Results

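The RNA-binding motif (RBM) genes RBM3, RBM5, RBM6, RBM10, RBM17, RBM25 and RBM39, were followed through 5 tables of splicing events from HEK293T cells treated with amiloride. They were taken by gene symbol, and all 7 genes were present among the 12254 genes that the tables list. HEK293T is a line derived from human embryonic kidney, and amiloride is a diuretic that also alters splicing. The control group was 1 library of untreated HEK293T cells, and the treated group was 1 library of cells given 300 µg/mL of amiloride in the medium for 6 h, both from polyadenylated RNA. Each event compares how often a stretch of RNA is included, as a fraction of transcripts, and the tables give an inclusion level difference and a false discovery rate (FDR) from rMATS, a program that weighs reads including the stretch against reads skipping it.

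In the tables the libraries carry a number but no condition. Levels and depth per library are therefore not given here, the cell line was not checked against marker genes, a positive difference means higher inclusion in the first numbered library, and the sign cannot be assigned to amiloride. With 1 library in each condition there is no replicate check, so every call compares these libraries and not the conditions. An event was called at an FDR under 0.1, and an exon with any called skipped-exon event was termed sensitive, otherwise resistant. An exon can be listed in several events with different flanking exons, and such events share reads.

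RBM proteins bind pre-mRNA and change which exons the spliceosome keeps. RBM5, RBM6 and RBM10 are related proteins that act on exon choice in genes such as FAS and NUMB, RBM17 and RBM39 contact the factors that recognise the 3′ splice site (3′SS), RBM25 acts with the U1 particle at the 5′ splice site (5′SS), and RBM3 is a protein induced by cold. Several splicing regulators are known to control their own messages through exons whose skipping or inclusion brings in an early stop codon and leads to nonsense-mediated decay (NMD), and skipping of exons in RBM5 and RBM10 transcripts by RBM10 is a known case.

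The exon that carried a called difference in all 3 related genes was exon 6 of RBM5, RBM6 and RBM10, which encodes part of the first RNA recognition motif. It is shown because its length and its 5′SS are the same in the 3 genes. The exon is in capitals, with the last 20 bases of the upstream intron and the first 6 of the downstream intron in lower case, on GRCh37 and read 5′ to 3′ on the plus strand at chr3:50137945-50138044 for RBM5, chr3:50036853-50036952 for RBM6 and chrX:47034398-47034497 for RBM10.
RBM5 exon 6: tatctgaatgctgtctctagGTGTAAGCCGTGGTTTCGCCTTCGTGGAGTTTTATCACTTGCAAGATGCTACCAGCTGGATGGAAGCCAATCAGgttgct
RBM6 exon 6: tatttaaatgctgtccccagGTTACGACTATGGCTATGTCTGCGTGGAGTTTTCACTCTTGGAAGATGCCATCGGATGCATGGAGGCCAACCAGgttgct
RBM10 exon 6: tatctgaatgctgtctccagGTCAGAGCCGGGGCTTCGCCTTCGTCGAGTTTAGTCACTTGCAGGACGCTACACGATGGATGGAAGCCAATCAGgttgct

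Exon 6 is 74 bases long in each of the 3 genes. The exon was identical at 61 of 74 bases between RBM5 and RBM10, at 51 between RBM5 and RBM6 and at 48 between RBM6 and RBM10. The intron bases before it matched at 19 of 20 positions between RBM5 and RBM10, at 16 between RBM5 and RBM6 and at 17 between RBM6 and RBM10, and the 6 bases after it were the same in all 3 genes. In RBM5 the difference was 0.695 at a listed FDR of 0. In RBM6 it was 0.238 at an FDR of 8.0e-14, and in RBM10 it was 0.147 at a listed FDR of 0. All 3 events joined the adjacent exons 5 and 7, and all had the same sign. Among the 24016 sensitive exons of all genes, 1.95% had a difference at or above that of RBM5 exon 6, while 24.1% reached that of RBM6 and 39.9% that of RBM10.

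The 5′SS of exon 6, CAGgttgct with the exon bases in capitals, scored 2.83 bits in each gene. The score sums, over 9 bases, the log2 ratio of each base's frequency at 300873 annotated 5′SS to an even base frequency. Of the 67246 listed exons, counted once for each gene symbol, 2.39% had a 5′SS score at or below this value. Beside the 3 RBM exons that prompted the search, the same 9 bases closed 4 listed exons, of which 2 were sensitive, where 35.7% of all listed exons were. Those called were exons of CLSTN1 with a difference of 0.055 and of MSRB3 with 0.14, and those not called were in CD276 and BBS7. The search for this site was chosen after the values were seen.

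Removal of 74 bases shifts the reading frame. When exon 6 was removed from the canonical GENCODE transcript, the frame closed after 150 residues in RBM5, where the full protein has 815. The corresponding values were 520 of 1123 residues in RBM6 and 182 of 930 in RBM10. In each case the stop codon lay more than 50 bases upstream of the last exon junction, at 1795, 1609 and 2044 bases, a position known to expose transcripts to NMD. Transcript levels were not measured in these tables.

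Other exons of equal number and length did not share calls in this way. Exon 5, of 70 bases in all 3 genes, was called in RBM5 with 0.06 in the join of exons 4 and 7. In RBM6 it was called with -0.165 in another join, of exons 2 and 7. In the join of exons 4 and 7 the RBM6 exon had 0.006 and was not called. No event of exon 5 was listed in RBM10. Exon 8, of 61 bases, was sensitive in RBM5 with a difference of 0.817 and in RBM10 with 0.088, both in the join of exons 7 and 11. Between the adjacent exons 7 and 9 it had 0.494 in RBM5 and 0.004 in RBM6, where it was resistant, and no such event was listed in RBM10. Exon 10, of 161 bases, had 0.461 in RBM5 and 0.118 in RBM10, both in the join of exons 7 and 11, and was resistant in RBM6. Between the adjacent exons 9 and 11 it had 0.163 in RBM5, 0.005 in RBM10 and 0.002 in RBM6, and of these only the RBM5 event was called. Exon 11, of 98 bases, was called in RBM6 alone among the 3, with a difference of 0.068. Whether the differences themselves differ between the genes was not tested.

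**Figure D1:**
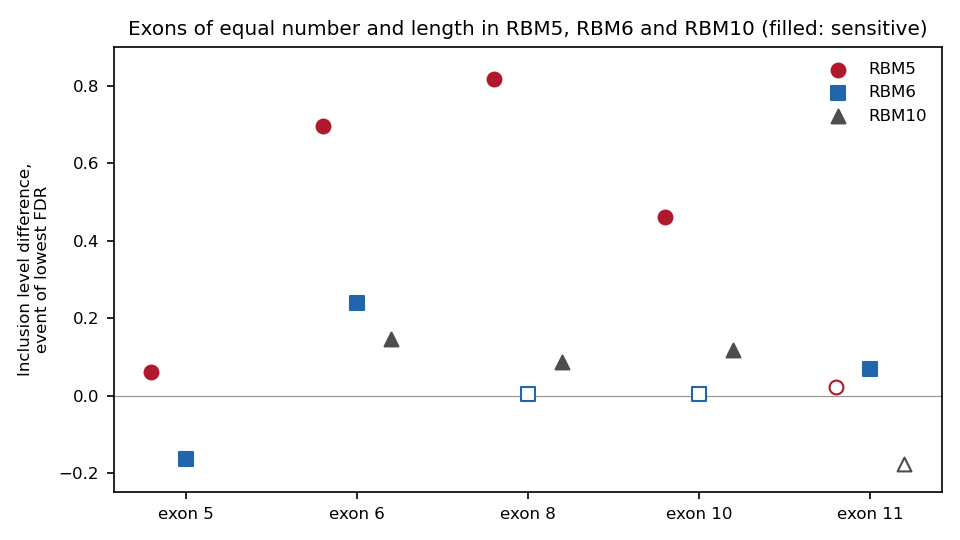
Inclusion level difference (y axis, first numbered library minus second) of the event of lowest FDR for exons 5, 6, 8, 10 and 11, which have equal length in RBM5 (circles), RBM6 (squares) and RBM10 (triangles, with no listed event for exon 5). The joins can differ between genes. Filled symbols are sensitive exons, and exon 6 is the only one filled in all 3 genes, at 0.695, 0.238 and 0.147.

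Over the 7 genes, 62 of 223 skipped-exon events were called, or 27.8% (95% Wilson interval 22.3 to 34.0, counting error only), beside 27.5% over all genes. The share was near the background, and it differed widely among the genes. RBM5 had 32 of 78 events called, RBM39 13 of 28, RBM10 9 of 45, RBM6 5 of 42, RBM17 2 of 7 and RBM3 1 of 10. RBM25 had 0 of 13 events called. Of the called events 60 had a positive difference and 2, both in RBM6, a negative one. Negative calls made up 0.897% of the 223 listed events, beside 1.1% of all listed events. A size of at least 0.1 was reached by 36 called events, or 16.1% of the 223 listed, beside 14.5% of all listed events, so this share too was near the background. The median difference was 0.012 over all events of the 7 genes and 0.017 over the whole table.

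Counted by exon, 36 of 86 listed exons were sensitive, or 41.9% (Wilson interval 32.0 to 52.4), beside 35.7% of the exons of all genes. Forms of 1 exon with different ends count separately, here and in all genes, as for RBM10 exon 10 and RBM39 exon 13. Of the 82 listed exons of the canonical transcripts, 32 were sensitive. RBM5 held 13 of the 36. Without RBM5 the count was 23 of 66, or 34.8%. The other sensitive exons were 8 of 16 in RBM39, 7 of 15 in RBM10, 5 of 18 in RBM6, 2 of 6 in RBM17, 1 of 3 in RBM3 and 0 of 8 in RBM25. The RBM5 share of 65.0% was reached or exceeded by 7.88% of the 2055 genes with at least 10 listed exons. The RBM39 share was reached by 30.5% of those genes, that of RBM10 by 32.6% and that of RBM6 by 70.4%. An exon listed in more events has more chances of a call, and these shares are not adjusted for it. Exactly 1 event was listed for 6 of 20 exons in RBM5, for 29 of 86 in the 7 genes and for 40384 of 67246 in all genes.

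**Figure D2:**
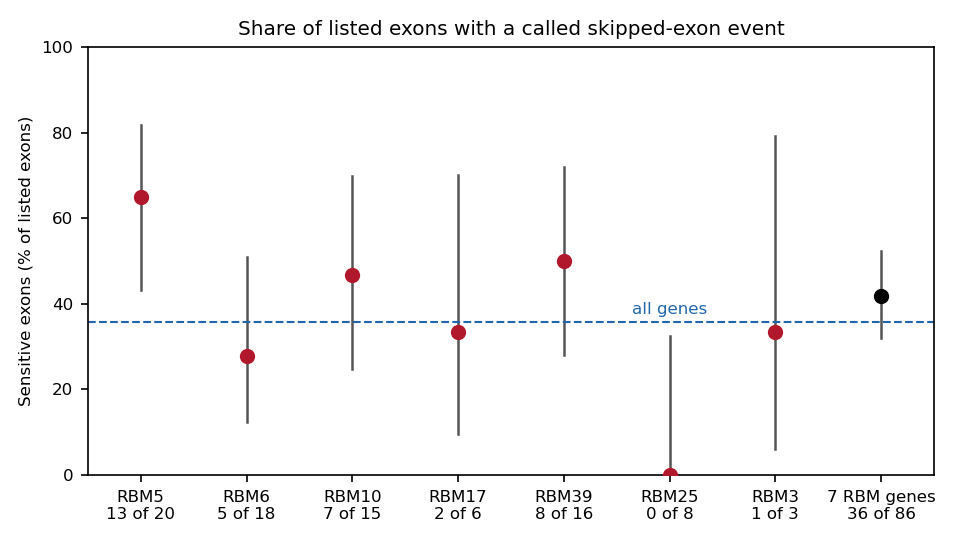
Percent of listed exons that were sensitive in each gene and in the 7 genes together (points), with 95% Wilson intervals that cover counting error only (lines). The dashed line marks 35.7% over all genes. Among the 7 genes RBM5 had the highest share, at 65.0%, and RBM25 the lowest, at 0 of 8. Exons of the same gene can share reads and skipping junctions, so the intervals are too narrow to test any gene against the dashed line.

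RBM5, at chr3:50126352-50156454 on the plus strand, encodes a tumour suppressor that acts during spliceosome assembly. Its listed differences were the largest of the 7 genes, and they fell into runs of neighbouring exons. Exon 8 had a difference of 0.817 when exon 7 was joined to exon 11, and 0.494 when it was joined to exon 9. In the same join of exons 7 and 11, exon 9 had 0.571 and exon 10 had 0.461. These 3 events rest on the same skipping junction and are therefore not separate observations. Between its adjacent exons, exon 10 had 0.163.

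A further run lay between exons 13 and 18. There exon 17 had a difference of 0.31 and exon 14 had 0.236, where the events between adjacent exons gave -0.004 for exon 17, which was not called, and 0.03 for exon 14. Exon 16 stood apart from this, since its difference was 0.7 when exons 15 and 18 were joined and 0.636 when the adjacent exons 15 and 17 were joined. The last run lay between exons 19 and 23, with 0.527 for exon 20, 0.565 for exon 21 and 0.402 for exon 22. Of these, only exon 20 was also called between adjacent exons, at 0.2, while exons 21 and 22 had 0.002 and 0.015. The remaining sensitive exons of RBM5 had small differences in the event of lowest FDR, of 0.06 for exon 5, 0.075 for exon 12 and 0.046 for exon 15, although exon 15 also had a called event with 0.491, at an FDR of 0.0738, in the join of exons 13 and 18.

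Exon 16 is shown as the RBM5 exon with the largest adjacent-exon difference after exon 6, at chr3:50147792-50147902 on the plus strand, with the exon in capitals.
RBM5 exon 16: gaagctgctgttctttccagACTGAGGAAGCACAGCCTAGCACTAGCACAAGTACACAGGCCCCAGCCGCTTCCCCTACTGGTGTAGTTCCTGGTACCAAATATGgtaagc

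The exon has 85 bases, and its removal closed the frame after 462 of 815 residues, 848 bases upstream of the last junction. Its 5′SS scored 8.77 bits, and 62.3% of all listed exons scored at or below it, in contrast to the low score of exon 6. The RBM5 exons 3, 4, 7, 11, 13, 18 and 19 were resistant. Exon 7 had a listed difference of -1 at an FDR of 0.113, outside the threshold, and the lowest FDR of the other 6 was 0.129. The highest positive difference listed for the gene, 0.872 for exon 12 in the join of exons 9 and 15, was also not called.

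**Figure D3:**
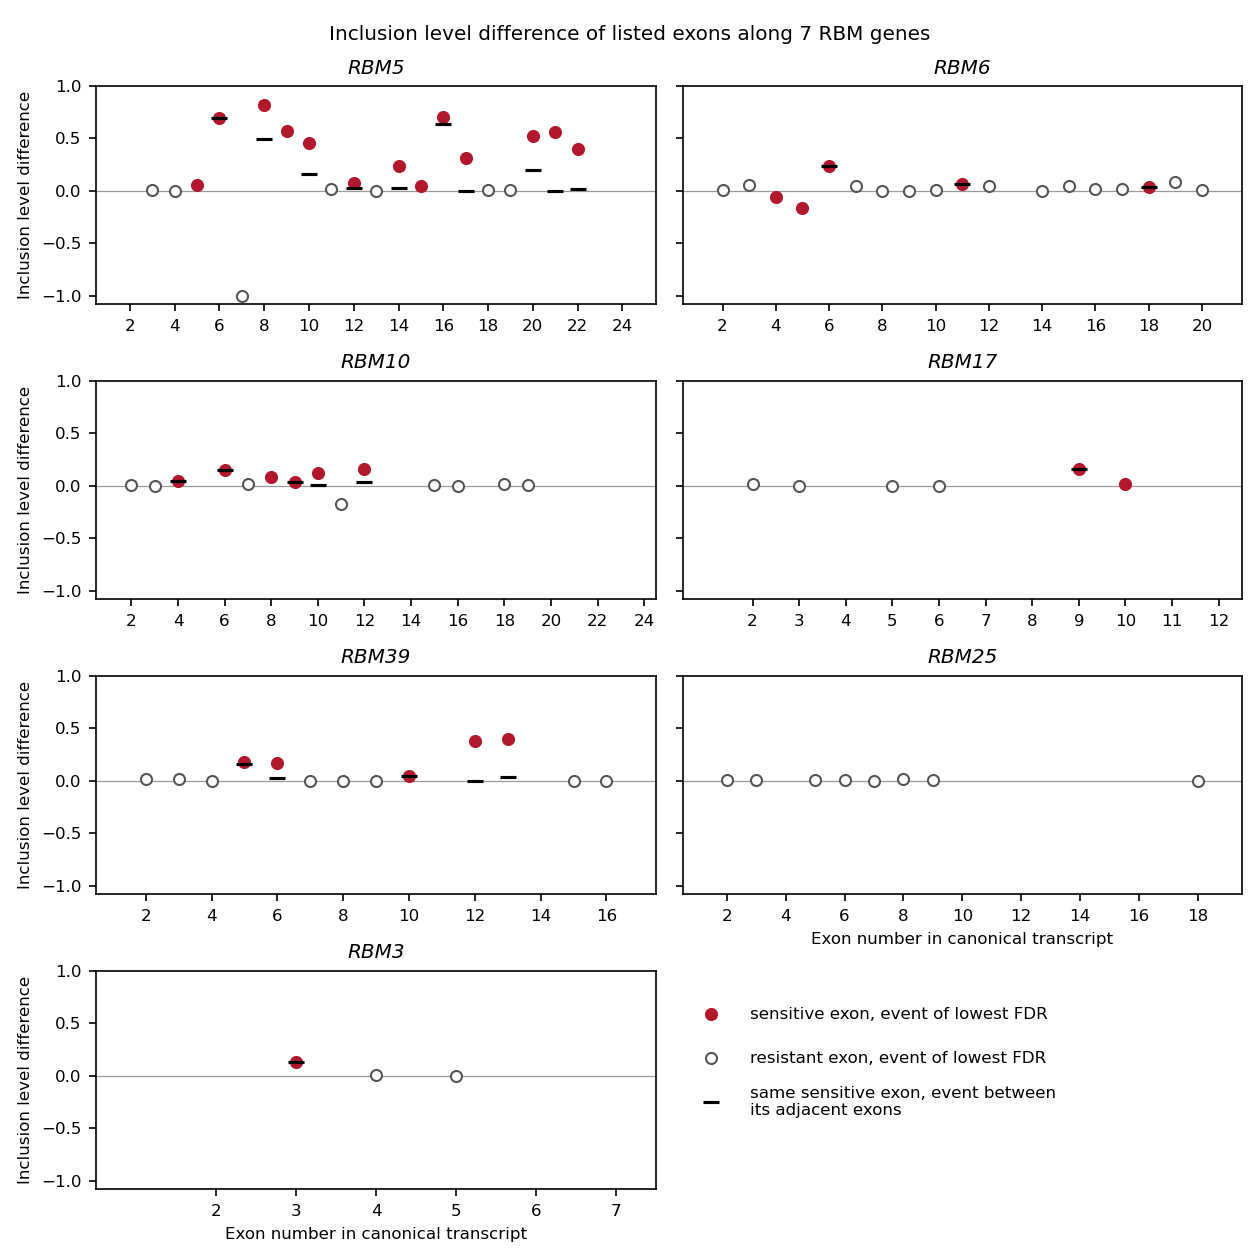
Inclusion level difference (y axis) by exon number in the canonical transcript (x axis) for each gene, with sensitive exons filled and resistant exons open. Black bars give the event between adjacent exons for the same sensitive exon, and in RBM5 exons 17, 21 and 22 and in RBM39 exons 12 and 13 the bar lies near 0 far below the point.

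The runs were examined by the junction that skips them. Of the junctions listed for the 7 genes that join exons of the canonical transcript, 64 skipped 1 exon and 84 skipped 2 or more. Of the first kind 20 carried a called event, or 31.2%, beside 31% in all genes. Of the second kind 20 carried one, or 23.8%, beside 25.2% in all genes. Both shares were near the background.

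The called junctions over several exons mostly removed a multiple of 3 bases. This held for 14 of the 20 called junctions over 2 or more exons, or 70.0%, and for 24 of the 64 not called, or 37.5%. In all genes it held for 38.8% of called and 40.7% of other such junctions. RBM5 held 10 of the 14. Without RBM5 the count was 4 of 7. With differences of at least 0.3, a limit chosen after the values were seen, there were 6 such junctions, and all 6 removed a multiple of 3 bases, beside 36.9% of the 1926 in all genes. Junctions of 1 gene overlap, so they were not tested against the other genes.

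In RBM5 the junction from exon 7 to exon 11 removed 288 bases, and left 719 of 815 residues in frame. The junction from exon 13 to exon 18 removed 336 bases and left 703 residues. The junction from exon 19 to exon 23 removed 327 bases and left 706, that from exon 15 to exon 18 removed 177 and left 756, and that from exon 7 to exon 13 removed 474 and left 657. Each of these joins therefore keeps the frame as a whole, although exons such as 8, 10, 14, 15, 16 and 17 are not multiples of 3 by themselves. Other called RBM5 joins over 2 or more exons did not keep it. These were exons 14 to 18, 8 to 11 and 7 to 10, with highest called differences of 0.109, 0.106 and 0.034. The 3 single exons of RBM5 with the largest differences between adjacent exons, 6, 8 and 16, each shifted the frame.

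**Figure D4:**
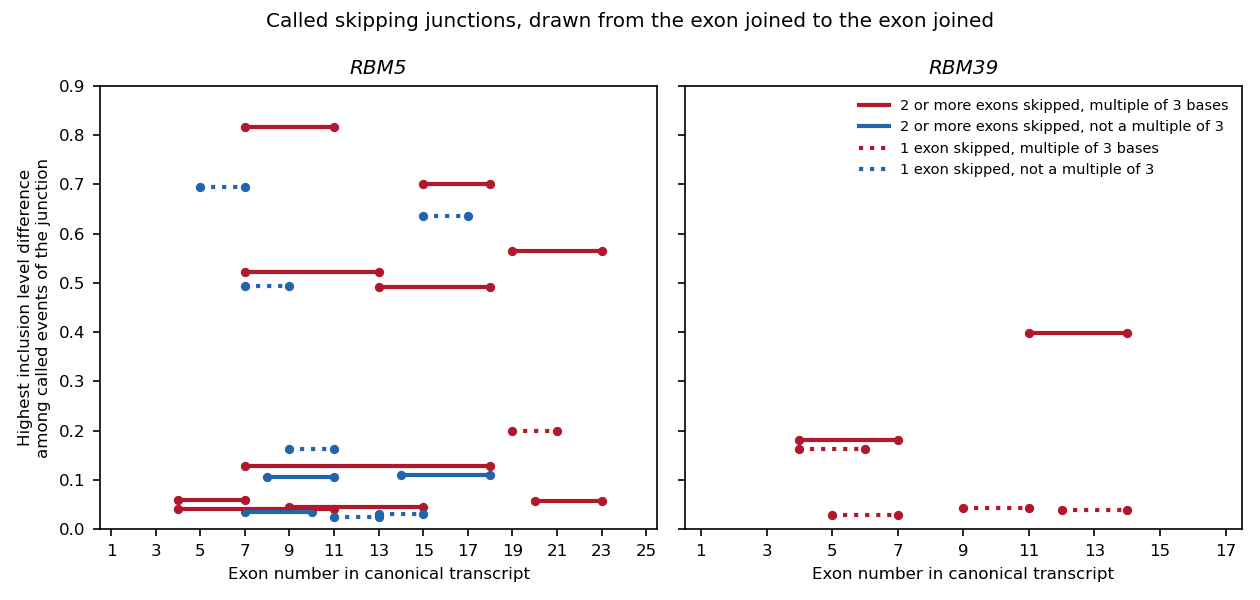
Called skipping junctions of RBM5 and RBM39, each drawn from the upstream to the downstream exon that it joins (x axis, exon number) at the highest inclusion level difference among its called events (y axis). Red lines remove a multiple of 3 bases and blue lines do not, solid lines skip 2 or more exons and dotted lines 1, and every solid line above 0.3 is red.

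RBM39, at chr20:34289269-34330182 on the minus strand, encodes a U2AF-related splicing factor and transcriptional coactivator. Its largest differences also belonged to a run. When exon 11 was joined to exon 14, exon 12 had a difference of 0.383 and exon 13 had 0.398, both at a listed FDR of 0. Between adjacent exons, exon 12 had -0.001 and was not called, and exon 13 had 0.038. With a shorter form of exon 13 downstream, described below, exon 12 had 0.027 and was called. The join of exons 11 and 14 removes 129 bases and left 487 of 530 residues in frame. In the join of exons 4 and 7, exon 5 had 0.18 and exon 6 had 0.165. Exon 5 alone had 0.162, and exon 6 alone had 0.028. The exons are multiples of 3, yet the frame of the 4 to 7 join closed after 98 residues. Exon 10 had a difference of 0.042.

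Exon 13 of RBM39 has 2 alternative 3′SS, 18 bases apart, which gave the only alternative 3′SS events of the 7 genes. Both were called, where 23% of all such events were called. The longer exon had a difference of 0.053 at an FDR of 0.000881 when joined to exon 12, and of 0.378 at an FDR of 0.00496 when joined to exon 11. The site of the longer form scored 2.77 bits and that of the shorter form 10.42 on the 3′SS scale, built from 300290 annotated sites over 23 bases. The 2 sites are shown with the 18 added bases in capitals, which end in the AG of the shorter form, at chr20:34297167-34297216 on the minus strand.
RBM39 exon 13, alternative 3′SS: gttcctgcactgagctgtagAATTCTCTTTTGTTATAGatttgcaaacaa

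The shorter form of exon 13, of 33 bases, was itself listed as a skipped exon, with a difference of 0.39 in the join of exons 11 and 14 and 0.033 between exons 12 and 14.

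RBM39 also held the only listed exons of the 7 genes that GENCODE places in NMD transcripts and in no protein-coding one. An exon of 73 bases between exons 2 and 3, in 9 such transcripts, had a difference of 0.1 at a listed FDR of 0. The annotated reading frame ended inside it in 9 of 9 transcripts. An exon of 72 bases between exons 3 and 4, in 3 such transcripts, had 0.027 at a listed FDR of 0. The frame ended inside it in 1 of the 3. Both were included more in the first numbered library, the same sign as the other called RBM39 exons. The 73-base exon is shown in capitals at chr20:34328441-34328539 on the minus strand.
RBM39 exon of NMD transcripts: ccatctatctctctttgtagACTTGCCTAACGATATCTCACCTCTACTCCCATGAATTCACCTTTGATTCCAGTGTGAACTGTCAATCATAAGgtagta

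RBM10, at chrX:47004620-47046212 on the plus strand, encodes a repressor of alternative exons that is known to regulate NUMB and its own message. Its largest called difference was in exon 12, of 88 bases, with 0.159 in the join of exons 7 and 13 and 0.035 between the adjacent exons 11 and 13. RBM5 exon 12, of the same length and identical at 67.0% of bases, had 0.075 and, between adjacent exons, 0.025. In RBM10, exons 8 and 10 had 0.088 and 0.118 in the join of exons 7 and 11, and a form of exon 10 shorter by 3 bases had 0.098. Exon 9 had 0.041 and exon 4 had 0.046. The join of exons 7 and 11 removes 399 bases, and that of exons 7 and 13 removes 585, both multiples of 3. Exon 12 is shown with its 5′SS, which scored 4.94 bits, at chrX:47039798-47039911 on the plus strand.
RBM10 exon 12: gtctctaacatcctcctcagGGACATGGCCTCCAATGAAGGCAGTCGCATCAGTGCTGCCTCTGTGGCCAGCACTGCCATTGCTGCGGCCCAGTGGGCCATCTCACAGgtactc

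RBM10 also gave the 2 alternative 5′SS events of the 7 genes, neither of which was called, where 28.2% of all such events were. The tandem 5′SS of exon 10, 3 bases apart, had a difference of 0.002 at an FDR of 1. A choice that adds 31 bases to exon 1 had -0.009 at an FDR of 0.773. The other 8 listed RBM10 exons were resistant, among them exon 11 with a difference of -0.176 at an FDR of 0.463.

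RBM6, at chr3:49977583-50114682 on the plus strand, lies upstream of RBM5 and encodes a related RNA-binding protein. It held both called skipped-exon events of negative sign. Exon 5 had a difference of -0.165 at an FDR of 3.5e-10 and exon 4 had -0.062 at an FDR of 0.011, each in the join of exons 2 and 7, which skips 1513 bases and all 4 exons between. Exon 6 in that same join had -0.014 and was not called, although it had 0.238 between its adjacent exons 5 and 7. The junction of exons 5 and 7 counts for inclusion of exon 5 in the join of exons 2 and 7. It also counts for skipping of exon 6 between its adjacent exons. The -0.165 of exon 5 and the 0.238 of exon 6 are therefore not separate observations. Exon 11 had 0.068 and exon 18 had 0.035. The other 13 exons were resistant. GENCODE lists 1 NMD transcript of RBM6 that reads into RBM5 and shares 3 of its exons, so reads of those exons may count for either symbol.

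RBM17, at chr10:6130997-6159410 on the plus strand, encodes SPF45, which binds U2AF-type factors at the 3′SS and promotes skipping in FAS. Its exon 9 had a difference of 0.163 at a listed FDR of 0, between adjacent exons. Like exon 6 of the 3 related genes the exon has 74 bases, and its removal closed the frame after 294 of 401 residues, 143 bases upstream of the last junction. Exon 10 had 0.022 at an FDR of 0.000837 in the join of exons 8 and 11, where both forms lack exon 9. No event of exon 10 between its adjacent exons was listed. The other 4 listed exons were resistant, with differences of 0.001 to 0.014. Exon 9 is shown at chr10:6155451-6155550 on the plus strand.
RBM17 exon 9: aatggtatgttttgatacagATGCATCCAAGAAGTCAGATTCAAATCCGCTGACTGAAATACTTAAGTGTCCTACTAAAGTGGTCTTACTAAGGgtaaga

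RBM3, at chrX:48432872-48439550 on the plus strand, had 1 sensitive exon of 3. Exon 3, of 107 bases, had a difference of 0.126 at a listed FDR of 0 between adjacent exons. Its removal closed the frame after 68 of 157 residues, 183 bases upstream of the last junction. Exons 4 and 5 had 0.011 and 0.001 and were not called. RBM3 exon 3 is shown at chrX:48433929-48434061 on the plus strand.
RBM3 exon 3: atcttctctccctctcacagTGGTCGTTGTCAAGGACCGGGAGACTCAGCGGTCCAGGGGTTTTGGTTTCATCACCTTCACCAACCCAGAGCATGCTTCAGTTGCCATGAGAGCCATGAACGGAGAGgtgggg

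RBM25, at chr14:73525242-73590607 on the plus strand, encodes an arginine- and glutamate-rich regulator of 5′SS choice. None of its 8 listed exons was sensitive. The lowest FDR was 0.43, for exon 8, whose event of lowest FDR had a difference of 0.013 and whose other event had 0.323. In the events between adjacent exons the differences of RBM25 ran from -0.001 to 0.014.

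The mutually exclusive exon table was called more often than the skipped-exon table in these genes, as in all genes. Of 101 such events, 60 were called, or 59.4%, beside 39.3% over all genes. The Wilson interval of 49.7 to 68.5 covers counting error only, and the same pair of exons can be listed in several events. Of the 60, 27 had a positive and 33 a negative difference, and which exon of the pair the sign counts was not given in the sources used here. RBM5 had 28 of 36 called, or 77.8%, and so held 28 of the 60. RBM10 had 9 of 19, RBM39 8 of 13, RBM6 7 of 20, RBM3 4 of 4, RBM17 2 of 3 and RBM25 2 of 6. Of the called events, 47 contained at least 1 sensitive exon, and of the 41 others 19 did. The 2 tables therefore describe many of the same exons and are not independent.

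In RBM5 the called mutually exclusive pairs of lowest FDR and largest size were exons 16 and 17 with a difference of 0.327 and exons 15 and 17 with -0.298. In RBM10 they were exon 7 with either form of exon 10, at -0.32 for the longer and -0.28 for the shorter. In RBM39 they were exons 6 and 7 with 0.3 and exons 5 and 6 with 0.111. These pairs hold an exon that the skipped-exon table also calls. In RBM6, exons 5 and 6 formed a pair with -0.278, and exons 19 and 20 a pair with -0.044. Exons 5 and 6 of RBM6 had opposite signs in skipped-exon events that share a junction. In RBM3, exons 3 and 4 had 0.109 and exons 4 and 5 had -0.086. In RBM17, exons 2 and 3 had 0.078 and exons 5 and 6 had -0.044. In RBM25, whose skipped exons were not called, exons 8 and 9 had 0.099 and exons 5 and 6 had 0.045. The 7 genes had no event among the 677 retained introns listed.

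Sequence features were compared between sensitive and resistant exons. Exon length enters the effective length that rMATS gives the inclusion form, so it is not separate from the calls. The splice site scores were not used by the calls. The median length was 74.5 bases for the 36 sensitive and 106 bases for the 50 resistant exons of the 7 genes, beside 102 and 122 bases in all genes. The median 5′SS score was 7.38 bits in sensitive and 8.64 bits in resistant exons, beside 7.96 and 8.16 in all genes. The median 3′SS score was 7.75 against 9.71 bits, beside 9.04 and 9.30 in all genes. Sensitive exons of the RBM genes were thus shorter and lower-scoring by their medians, in the same order as in all genes, and with wide overlap. All 86 exons were flanked by AG and GT.

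**Figure D5:**
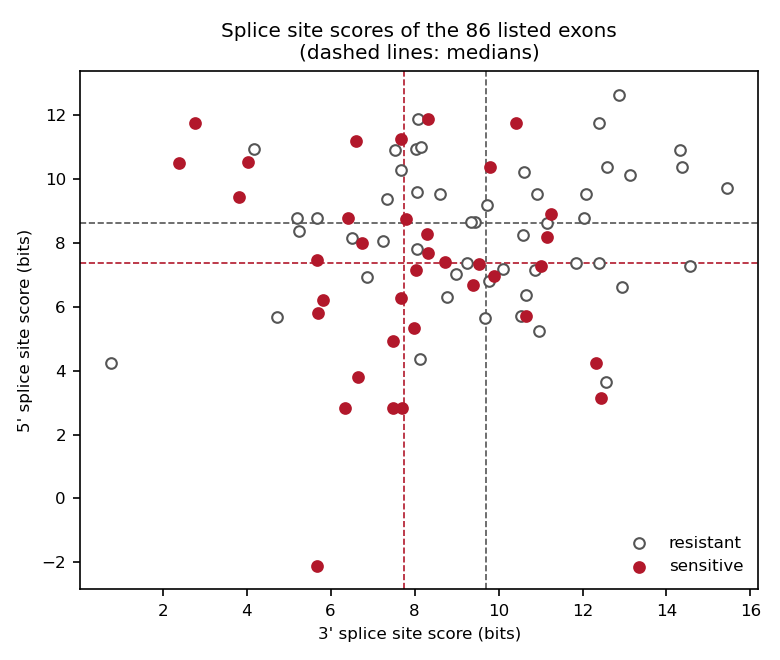
5′SS score (y axis, bits) against 3′SS score (x axis, bits) for the 86 listed exons of the 7 genes, sensitive filled and resistant open. Dashed lines mark the medians of each class, 7.38 and 8.64 bits for the 5′SS and 7.75 and 9.71 bits for the 3′SS, and the classes overlap along both axes.

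The frame was followed for the 82 listed exons of the canonical transcripts. Among 32 sensitive ones, 18 were not multiples of 3, and removal of any of the 18 gave a stop codon more than 50 bases upstream of the last junction. Removal of the exon alone is not always the called event. Between adjacent exons, RBM5 exon 17 had -0.004 and RBM10 exon 10 had 0.005, and neither was called. RBM5 exons 5 and 15, RBM10 exon 8 and RBM6 exon 5 had no such event listed. Among 50 resistant ones, 27 were not multiples of 3, and removal gave such a stop codon in 19. In the other 8 the stop codon fell elsewhere or the exon carried the start codon. None of the multiples of 3 whose frame could be followed gave such a stop codon when removed alone.

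Genes of the same pathway and known targets were counted beside the 7. Of 36 other RBM-named genes, 33 were listed, and 52 of their 146 exons were sensitive, or 35.6%, with 48 positive and 4 negative differences. RBM34 had 6 sensitive exons, and RBM27 and RBMS2 had 5 each. Of 26 genes for 3′SS recognition and the U2 particle, 24 were listed, with 72 of 183 exons sensitive, or 39.3%, of which 69 were positive. SF3B3 had 12 sensitive exons, SF3A3 11 and U2SURP 8. Both shares were close to the 35.7% of all genes and to that of the 7 genes without RBM5.

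Of 5 genes whose alternative exons these RBM proteins are known to regulate, 4 were listed. Of their 30 exons 20 were sensitive, or 66.7%, beside 35.7% of all exons, with 19 positive and 1 negative. The Wilson interval of 48.8 to 80.8 covers counting error only, and exons of 1 gene share reads. The list was chosen with earlier results of these data known. By event, FAS had 5 of 7 called, NUMB 14 of 43, CFLAR 3 of 7 and CASP2 7 of 11, beside 27.5% over all genes. FAS, a death receptor whose exon skipping yields a soluble form, had 4 of 5 exons sensitive with a median difference of 0.428. NUMB, a Notch regulator, had 8 of 11 with a median of 0.156. CFLAR, a caspase inhibitor, had 2 of 5 with 0.211 and 0.448, and CASP2 had 6 of 9 with a median of 0.138 and 1 exon at -0.038. BCL2L1 had no listed skipped-exon event. No RBM protein was perturbed in these libraries, and whether changes in the RBM messages bear on these exons was not tested.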

How the data were processed

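Polyadenylated RNA of 1 control and 1 amiloride library was sequenced as paired-end reads by the authors. Reads were aligned with STAR 2.5.1 to GRCh37 per the labels, and the authors compared the libraries with rMATS, whose version is not given in the sources used here. Their 5 deposited tables give p-values and FDR values (adjusted within each table) and the inclusion level difference, a score from -1 to 1. These are the authors' own comparisons and the only values used. The 30 per-library columns were not used, because they name no condition, so depth is not given. Nothing was refitted.

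Distinct exons were taken from the skipped-exon table, joined to GENCODE v44lift37, and scored on GRCh37 with position weight matrices (pseudocount 0.5). Exon numbers refer to the Ensembl canonical transcript. The genes, the lists and the rule for named items were chosen with earlier results of these data known. Named were all 7 genes, up to 5 sensitive exons per gene by lowest FDR, all alternative splice site events, 2 mutually exclusive events per gene, NMD exons, and the leading genes of each list. Further exons were named after their values were seen. Counting functions were tested on simulated data. Stricter FDR limits (0.05 and 0.01) and a minimum size of 0.1 were tried, as were other choices of event and exon. Python 3.11.15, numpy 2.4.6, pandas 2.3.3, pysam 0.24.0, Biopython 1.88 and matplotlib 3.10.9 were used.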

Additional observations from a re-analysis of the deposited data

How the results depend on the processing

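At a minimum size of 0.1, the called events fell from 62 to 36 among skipped exons, from 60 to 27 among mutually exclusive exons and from 2 to 1 among alternative 3′SS. Of the 86 listed exons, 36 were sensitive, and 14 were where every event of an exon had to be called. Among the 29 exons with exactly 1 event, 8 were sensitive. The shares over all genes under these 2 settings were not computed. Chosen after seeing the data, the count was 23 without RBM5 and 20 with events between adjacent canonical exons only. The median difference was 0.122 over called events, beside 0.012 over all. FDR thresholds of 0.05 and 0.01 left 60 and 55 called skipped-exon events and 36 and 34 sensitive exons. The retained intron table has no event of these genes, so its alternatives gave no value. No paired analysis was possible because the design has 1 library for either condition, and none could be left out for the same reason.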
